A study of Mus musculus with 32 samples.

Results

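Aminoacyl-tRNA synthetases were examined in MIN6 cells, a mouse insulinoma line used as a model of pancreatic β cells, exposed to sustained high glucose. The members are the genes whose symbol is an amino acid's letter followed by "ars", with or without 1, 2 or l, together with Eprs, Farsa, Farsb and Tarsl2 and with Aimp1, Aimp2 and Eef1e1, the scaffold proteins of the multisynthetase complex. This rule, which uses no measured value, found 41 of the 21945 genes in the RNA count table and the same 41 of the 21927 genes in the ribosome-protected footprint (RPF) count table. Wild-type cells were kept for 24 hours in medium with 5.5 or 25 mM glucose and received cycloheximide for the last minutes before lysis in both groups. At each concentration there were 8 samples, numbered as biological replicates 1 to 8 and assigned to 2 batches (replicates 1 to 4 and 5 to 8). Each sample has a polyadenylated RNA library and an RPF library, 32 libraries in all. MIN6 is a tumor line that was passaged at the higher glucose concentration, so that 5.5 mM is a change from its usual medium. The labels do not say how separately the replicates were grown, and p-values here measure the spread between these samples only.

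Each synthetase joins an amino acid to its tRNAs, using ATP, and so supplies the substrates of translation. Separate nuclear genes encode most cytosolic and mitochondrial enzymes, whereas Gars and Kars serve both compartments. Several cytosolic synthetase genes, and many genes of amino acid synthesis and uptake, are known targets of ATF4, a transcription factor made when eIF2α is phosphorylated under amino acid shortage or ER stress, which binds C/EBP-ATF response elements. The members fall into 13 cytosolic enzymes listed here from general knowledge as ATF4 targets (Aars, Cars, Eprs, Gars, Iars, Lars, Mars, Nars, Sars, Tars, Vars, Wars, Yars), 8 other cytosolic enzymes (Dars, Farsa, Farsb, Hars, Kars, Qars, Rars, Tarsl2), 17 mitochondrial enzymes, whose symbols end in 2, and the 3 scaffold proteins. The division was made with earlier results of these data known and is not independent evidence of a direction.

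The response element was searched as TGATGNAA, on both strands, in RefSeq promoter windows from 250 bases before to 50 bases after each gene's annotated start (GRCm38.p6). A window was at hand for 31 of the 41 members. Genes with a window were counted once, as matching if any of their windows did, and Aars2 and Aimp1 had 2 windows each. The letters were found in 5 of 8 ATF4-listed enzymes (62.5%) and in 1219 of all 27025 genes (4.51%). They were found in 0 of 14 mitochondrial enzymes, 0 of 6 other cytosolic enzymes and 0 of 3 scaffold proteins. Of the matches, 5 are printed below in the 5′ to 3′ direction of the gene's strand, with the match in capitals, 1 for each gene that had any, because they mark which members carry these letters near their start. In Yars the motif lies on the gene's strand, and in the other 4 genes the capitals are its reverse complement.
Aars, chr8:111033840-111033869, plus strand: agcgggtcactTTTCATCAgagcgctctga
Gars, chr6:55037960-55037989, plus strand: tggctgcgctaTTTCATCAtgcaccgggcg
Iars, chr13:49682126-49682155, plus strand: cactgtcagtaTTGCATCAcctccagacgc
Tars, chr15:11399655-11399684, minus strand: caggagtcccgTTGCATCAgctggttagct
Yars, chr4:129189895-129189924, plus strand: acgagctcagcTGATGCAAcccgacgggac
A match is a run of letters and not a measured binding site. Among the ATF4-listed enzymes with a window, Eprs, Mars and Sars held no match.

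Library totals ranged from 3014785 to 33623502 counts for RNA and from 363569 to 7012999 for RPFs. At 5.5 mM, 5 RNA libraries (replicates 2, 4, 6, 7 and 8) stood apart, with totals of 3014785 to 6907849 against 13795978 to 17542565 in the other 3. Ins1 and Ins2, the insulin genes, took 0.159% to 1.09% of their counts, against 4.40% to 8.08% in the other 3 and 3.98% to 6.51% at 25 mM. The RPF library labelled 25 mM replicate 8 had member levels like those at 5.5 mM, as described below. Results are given with and without these 6 libraries, and the part of library quality in them was not tested. All 12 β cell markers examined had a median above 1 CPM, reads relative to the library total, in every group. Of 15 markers of other pancreatic and stromal cells, Col3a1, Cpa1, Hhex, Ptf1a and Ptprc had a median of 0 in all groups. Gcg, the glucagon gene of α cells, was the highest of the 15 in every group, with unscaled medians of 8.12 and 226 CPM in RNA and 96.6 and 219 CPM in RPFs at 5.5 and 25 mM. Ppy and Krt19 had medians above 1 CPM in all groups as well. The summed level of the 15 was 7.66 to 188 CPM in RNA at 5.5 mM and 226 to 364 CPM at 25 mM, and in RPFs 151 to 290.4 CPM and 228 to 500.4 CPM, and its part in the results was not tested. Levels below are CPM after TMM scaling, a correction for library composition, unless stated otherwise.

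RPFs of many cytosolic synthetases fell at 25 mM glucose. Of the 39 members that passed the filter on low counts, 11 fell and 6 rose. Of the 13 ATF4-listed enzymes, 9 fell (Mars, Aars, Yars, Cars, Sars, Iars, Lars, Eprs and Nars), with changes from -19.6% to -40.7%, and 0 rose. The call was an adjusted p under 0.1 by edgeR's quasi-likelihood test with Benjamini-Hochberg adjustment over 8709 genes, of which 15.4% were called lower and 15.5% higher. All 13 fold changes were negative, with a median log2 fold change of -0.37 against -0.01 over all genes tested. At an unadjusted p under 0.05, 10 were lower and 0 higher, and DESeq2 called 9 lower and 0 higher. Of the 7 listed enzymes with a class I catalytic domain, 5 fell, and of the 5 with a class II domain, 3 fell. Eprs, which carries a domain of each class, also fell. These are relative RPF levels of bulk samples, so a change in all cells and a change in part of them cannot be told apart.

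**Figure D1:**
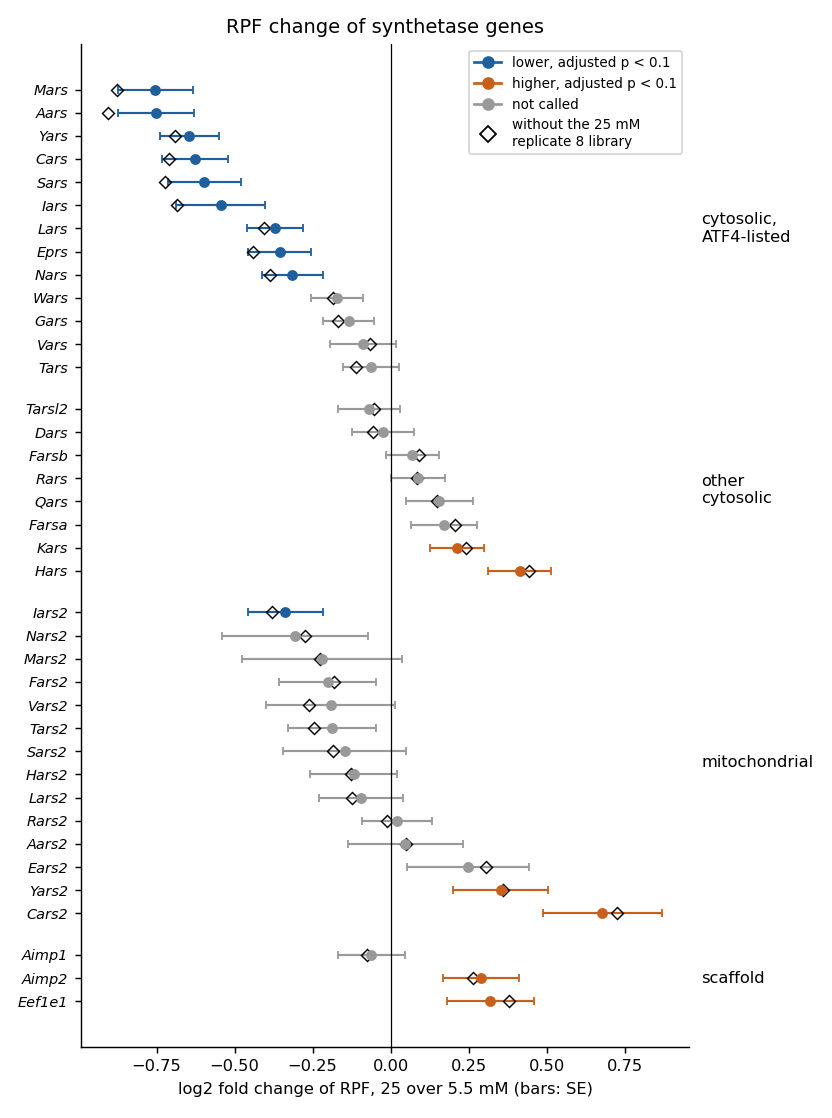
Log2 fold change of RPF CPM, 25 over 5.5 mM glucose, for members that passed the filter on low counts, in 4 groups. Filled points are the fit to all 16 RPF libraries with the SE as bars, colored by the call, and open diamonds are the fit without the 25 mM replicate 8 library. The ATF4-listed enzymes lie at or left of -0.06, and Hars (0.41) and Cars2 (0.68) lie farthest to the right.

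Mars charges tRNAs with methionine, including the initiator tRNA. Its RPF level had a lowest, median and highest value of 299.8, 363 and 454 CPM at 5.5 mM and of 176, 202 and 355 CPM at 25 mM. The log2 fold change was -0.75 (SE 0.12, adjusted p = 7.17e-05, edgeR's quasi-likelihood test). The 355 CPM came from replicate 8, and the other 7 libraries at 25 mM, at 176 to 223 CPM, all lay below the 5.5 mM range. Aars, the alanyl enzyme, went from 651, 698 and 882 CPM to 343, 389 and 736 CPM (log2 fold change -0.75, SE 0.12, adjusted p = 9.09e-05, edgeR's quasi-likelihood test). Again replicate 8 alone reached the 5.5 mM range, and the other 7 held 343 to 408 CPM. Yars, the tyrosyl enzyme, went from 153, 169.8 and 208 CPM to 87.3, 112 and 139.6 CPM (-0.64, SE 0.10, adjusted p = 3.34e-05, edgeR's quasi-likelihood test). Yars was the only member whose 2 groups did not overlap with all libraries in, where 0.264% of all genes did so in this direction. Its replicate 8 library was again the highest of the 25 mM group.

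Cars, the cysteinyl enzyme, went from 179, 201 and 223.5 CPM to 103, 130.3 and 202 CPM (log2 fold change -0.63, SE 0.10, adjusted p = 0.000112, edgeR's quasi-likelihood test). Sars, the seryl enzyme, which also charges the selenocysteine tRNA, went from 384, 408 and 461 CPM to 217, 253 and 451 CPM (-0.60, SE 0.12, adjusted p = 0.000551, edgeR's quasi-likelihood test). In both genes the highest 25 mM value was replicate 8 and lay inside the 5.5 mM range, while the other 7 reached at most 158 CPM for Cars and 297 CPM for Sars, below it. Iars, the isoleucyl enzyme, went from 93.2, 132 and 173 CPM to 49.0, 84.7 and 148 CPM (-0.54, SE 0.14, adjusted p = 0.00664, edgeR's quasi-likelihood test). Its groups overlapped even without replicate 8, since the next highest 25 mM library held 102.2 CPM.

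Lars, the leucyl enzyme, went from 245.5, 266 and 312.5 CPM to 166, 212 and 255 CPM (log2 fold change -0.37, SE 0.09, adjusted p = 0.00368, edgeR's quasi-likelihood test). Eprs, the joined glutamyl and prolyl enzyme, went from 529, 608 and 739 CPM to 391, 465 and 707 CPM (-0.36, SE 0.10, adjusted p = 0.0122, edgeR's quasi-likelihood test). Nars, the asparaginyl enzyme, went from 264, 283 and 349 CPM to 199, 217 and 324 CPM (-0.31, SE 0.10, adjusted p = 0.0186, edgeR's quasi-likelihood test). In each of these 3 genes the 25 mM maximum was replicate 8, and the other 7 libraries lay wholly below the 5.5 mM range.

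**Figure D2:**
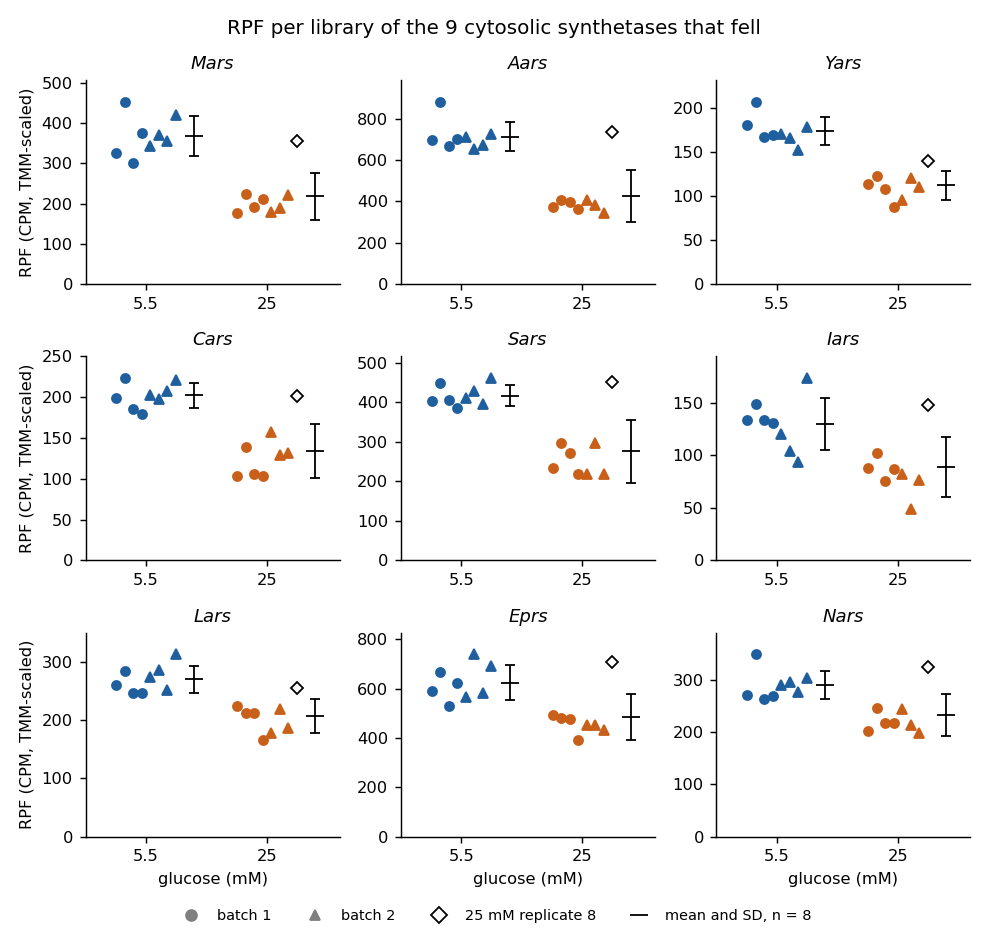
RPF level (TMM-scaled CPM, axes from 0) in each of 16 libraries by glucose concentration, for the 9 ATF4-listed enzymes that fell. Circles are batch 1, triangles batch 2 and the open diamond is the 25 mM replicate 8 library, with the mean and SD of 8 libraries at the right of each group. For Aars the diamond stands at 736 CPM, above the 343 to 408 CPM of the other 25 mM libraries.

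The 4 listed enzymes that were not called had smaller changes. Wars, the tryptophanyl enzyme, went from a median of 255 to 214 CPM, a log2 fold change of -0.17 with a 95% interval from -0.34 to -0.01 (adjusted p = 0.137, edgeR's quasi-likelihood test). Gars, the glycyl enzyme, went from a median of 883 to 799 CPM, and its interval ran from -0.29 to 0.02. Vars, the valyl enzyme, and Tars, the threonyl enzyme, had intervals from -0.30 to 0.12 and from -0.24 to 0.11. Gars and Tars are among the 5 genes with the motif printed above, while Aars, Iars and Yars, the other 3, fell. So did Eprs, Mars and Sars, whose windows held no match.

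The RPF library of 25 mM replicate 8 touched the size of these differences and, for 1 member, the call. For 8 of the 9 listed enzymes that fell, its value lay within the 5.5 mM range, the exception being Yars. Without it, the same 11 of all 41 members were called lower (17.0% of 9237 genes) and 5 higher (17.6%), Aimp2 being lost at an adjusted p of 0.124 by edgeR's quasi-likelihood test. The log2 fold changes of Aars and Mars were then -0.90 and -0.88. Without that library, 8 members had lower groups that did not overlap (Aars, Cars, Eprs, Lars, Mars, Nars, Sars and Yars), where 2.57% of all genes did so. There were 0 members with higher groups that did not overlap (3.47% of all genes). The library was set apart after its member levels had been seen, so member counts without it are not independent of that choice. All genes were not chosen in this way. In batch 1 alone, the 9 listed enzymes that fell were the members called lower, against 9.39% of genes, and Cars2, Hars and Kars were called higher, against 11.1%. In batch 2 alone, 2 were called lower (Mars and Yars, against 1.39% of genes) and 0 higher (2.92% of genes, with 1 member at an unadjusted p under 0.05), and without replicate 8 11 were lower (10.9% of genes) and 2 higher (11.3%). Without the 5 cultures whose RNA libraries stood apart, 6 fell (Aars, Cars, Iars, Mars, Sars and Yars, against 4.75% of genes) and 0 members rose (6.27% of genes, with 2 members higher at an unadjusted p under 0.05).

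The other cytosolic enzymes had few calls in RPFs, close to what the background of 15.5% higher and 15.4% lower would give. Of 8, 2 rose (Hars and Kars) and 0 fell, with a median log2 fold change of 0.12 under TMM scaling. With library size scaling 1 rose, against 1176 of 8709 genes. Without the 5 cultures 0 rose, against 6.27% of genes, with 1 higher at an unadjusted p under 0.05. Hars, the histidyl enzyme, went from 68.7, 85.1 and 113 CPM to 90.3, 117 and 142 CPM (log2 fold change 0.41, SE 0.10, adjusted p = 0.00406, edgeR's quasi-likelihood test). The groups overlapped through 5.5 mM replicate 3, at 113 CPM, and the other 7 libraries at 5.5 mM, at 68.7 to 89.5 CPM, lay below every 25 mM library. Kars, the lysyl enzyme, went from 139, 158 and 188 CPM to 155, 179.8 and 212 CPM (0.21, SE 0.09, adjusted p = 0.0743, edgeR's quasi-likelihood test). Its groups overlapped widely, and the call was lost with library size scaling (adjusted p = 0.162, edgeR's quasi-likelihood test) and when replicate 1, 2, 4, 6 or 7 was left out, at adjusted p of 0.101 to 0.214 by the same edgeR test. Farsa and Farsb, the subunits of the phenylalanyl enzyme, had log2 fold changes of 0.17 and 0.07 and were not called. Qars, Rars and Tarsl2, which handle glutamine, arginine and threonine, were at 0.16, 0.09 and -0.07. Dars, the aspartyl enzyme, was at 157, 189 and 202 CPM against 147, 174 and 225 CPM, with an interval from -0.22 to 0.17.

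Few mitochondrial enzymes were called in RPFs, at shares near the background of 15.5% higher and 15.4% lower. Pars2 and Wars2 did not pass the RPF filter, and of the other 15, 2 rose (Cars2 and Yars2) and 2 fell, Iars2 among them, with a median log2 fold change of -0.15. RPF counts of the 17 were low, with medians over the 16 libraries of 10.5 to 72.5 reads. Cars2, the cysteinyl enzyme of mitochondria, went from 8.18, 13.2 and 19.4 CPM to 15.5, 23.6 and 34.0 CPM (0.68, SE 0.19, adjusted p = 0.0108, edgeR's quasi-likelihood test). Yars2, the tyrosyl enzyme, went from 9.64, 18.9 and 26.2 CPM to 20.2, 23.5 and 33.3 CPM (0.35, SE 0.15, adjusted p = 0.0982, edgeR's quasi-likelihood test). Both groups overlapped in both genes, and Yars2 lost its call when replicate 1, 2, 4, 5, 6 or 7 was left out (adjusted p 0.111 to 0.223, edgeR).

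Iars2, the isoleucyl enzyme, went from 53.5, 79.3 and 103 CPM to 44.4, 65.0 and 72.7 CPM (log2 fold change -0.34, SE 0.12, adjusted p = 0.0416, edgeR's quasi-likelihood test). Its groups overlapped, and it was called in each of the 8 fits that left out a replicate. The 11 tested mitochondrial enzymes that were not called had log2 fold changes from -0.31 for Nars2 to 0.25 for Ears2.

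Set side by side, the cytosolic and mitochondrial enzymes for an amino acid gave the following calls in RPFs. For cysteine and tyrosine the cytosolic enzyme fell and the mitochondrial enzyme rose, and for isoleucine both fell. For alanine, Aars fell whereas Aars2 was at 13.0, 17.4 and 26.1 CPM against 13.0, 22.4 and 25.9 CPM and was not called. For methionine, Mars fell whereas Mars2 was at 8.21, 10.2 and 20.8 CPM against 2.62, 11.1 and 14.4 CPM and was not called. For histidine, Hars rose whereas Hars2 was at 21.8, 26.1 and 30.9 CPM against 19.8, 25.6 and 32.3 CPM, with an interval from -0.39 to 0.15. The difference between the members of a pair was not itself tested.

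The multisynthetase complex holds 8 of the cytosolic enzymes and the 3 scaffold proteins. Of these 11, 4 fell (Mars, Iars, Lars and Eprs) and 3 rose (Kars, Aimp2 and Eef1e1), where 15.4% of all genes fell and 15.5% rose. The 4 were also lower with library size scaling, under which, as without the 5 cultures, 0 of the 11 rose. In these 2 fits 1176 of 8709 and 610 of 9724 genes rose. Dars, Qars, Rars and Aimp1 were not called. Aimp2, which holds the complex together, went from 36.4, 48.6 and 54.6 CPM to 45.8, 58.3 and 70.5 CPM (log2 fold change 0.29, SE 0.12, adjusted p = 0.0856, edgeR's quasi-likelihood test). Eef1e1, which joins Mars to the complex, went from 23.3, 28.5 and 36.5 CPM to 22.6, 36.8 and 47.2 CPM (0.32, SE 0.14, adjusted p = 0.0947, edgeR's quasi-likelihood test). Both sets of groups overlapped, and neither gene was called with library size scaling or by DESeq2. Leaving out a replicate also lost Aimp2 (replicates 2, 4, 6, 7 and 8, adjusted p 0.105 to 0.239) and Eef1e1 (replicates 1, 2, 4, 5, 6 and 7, adjusted p 0.105 to 0.304) in the same edgeR test.

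The summed counts of the ATF4-listed and the other cytosolic enzymes, a ratio that needs no scaling between libraries, separated the groups but for 1 RPF library. In RPFs the ratio was 4.51 to 5.87 in the 8 libraries at 5.5 mM and 3.13 to 3.73 in 7 libraries at 25 mM. In the replicate 8 library at 25 mM it was 5.24, inside the 5.5 mM range. In unscaled CPM, the listed sum was 4642 to 5217 at 5.5 mM and 3060 to 3621 in the 7, whereas the sum of the other cytosolic enzymes was 871 to 1058 and, over all 8 at 25 mM, 870.0 to 1123. In RNA the ratio was 2.75 to 3.05 at 25 mM, 4.10 to 9.09 in 3 libraries at 5.5 mM and 27.5 to 49.1 in the 5 that stood apart. In those 5, the RNA sum of the other cytosolic enzymes was 57.9 to 142 CPM, against 419 to 659 CPM in the other 3.

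**Figure D3:**
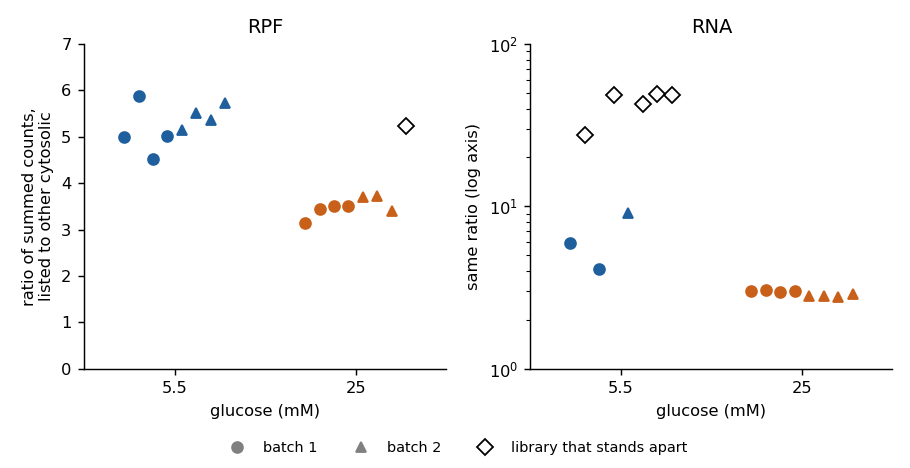
Ratio of summed counts of the 13 ATF4-listed to the 8 other cytosolic enzymes in each library by glucose concentration, for RPFs (left, linear axis from 0) and RNA (right, log axis). Circles are batch 1, triangles batch 2 and open diamonds the libraries that stand apart. The RPF diamond at 25 mM lies at 5.24, and the RNA diamonds at 5.5 mM lie at 27.5 to 49.1.

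RNA of the members also changed, and which members were called depended on the 5 RNA libraries at 5.5 mM. With all 16 libraries, 10 members rose and 10 fell at an adjusted p under 0.01 by edgeR's quasi-likelihood test, where 16.4% of 12365 genes rose and 24.2% fell. Without the 5, 4 rose and 15 fell, where 10.4% of 12918 genes rose and 19.2% fell. Shared by both fits were 4 that rose (Aimp2, Eef1e1, Mars2 and Rars) and 9 that fell (Cars, Eprs, Sars, Aimp1, Fars2, Lars2, Sars2, Vars2 and Wars2). When libraries were scaled by size instead of TMM, the median fold change over all genes went from 0.12 to 0.82 on the log2 scale with all libraries and from -0.003 to 0.08 without the 5. Without the 5, 6 of the 13 ATF4-listed enzymes fell and 0 rose, and 8 of 17 mitochondrial enzymes fell and 1 rose. Of the 8 other cytosolic enzymes 1 rose and 0 fell. With all libraries 4 of the 13 ATF4-listed enzymes fell and 0 rose, though 3 log2 fold changes were positive, up to 1.30. In that fit 5 of the 17 mitochondrial enzymes fell and 3 rose, and 5 of the 8 other cytosolic enzymes rose and 0 fell. In batch 1 alone edgeR called 0 members and 0.0% of genes, with 12 members at an unadjusted p under 0.05, and in batch 2 alone it called 11 members higher (16.8% of genes) and 7 lower (20.0%).

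Cars RNA was at 1671 to 2767 CPM in the 5 libraries and 90.4 to 339 CPM in the remaining 3 at 5.5 mM, against 57.2 to 69.4 CPM at 25 mM. The groups did not overlap, but the size rested on the 5, the log2 change being -4.60 (adjusted p = 7.18e-05, edgeR's quasi-likelihood test) and, without them, -1.57 (adjusted p = 0.000761, edgeR's quasi-likelihood test). Eprs RNA was at 1205 to 2713, 165 to 791 and 155 to 231 CPM in the same order, giving -2.74 and, without the 5, -1.13 (adjusted p = 0.00303, edgeR's quasi-likelihood test). Its lowest 5.5 mM library lay inside the 25 mM range. Sars RNA was at 456 to 780, 230.0 to 497 and 136 to 166 CPM, giving -1.74 and, without the 5, -1.35 (adjusted p = 0.000298, edgeR's quasi-likelihood test). All 8 Sars libraries at 5.5 mM lay above every library at 25 mM, and RNA and RPFs of Cars, Eprs and Sars fell together.

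Aars and Yars RNA fell in the fit without the 5 libraries and was not called with them. Aars was at 72.3 to 220.2 CPM in the 5, 228 to 365 CPM in the other 3 and 155 to 184 CPM at 25 mM, so that the log2 fold change was -0.18 with all libraries and -0.88 without the 5 (adjusted p = 0.000785, edgeR's quasi-likelihood test). For Yars the 2 values were -0.62 and -1.06 (adjusted p = 0.0011 without the 5, edgeR). Mars was the third such member among those whose RPFs fell, at -0.43 and -0.59 (adjusted p = 0.00405 without the 5, edgeR). Iars, whose RPFs fell, had RNA of 20.4 to 64.3 CPM in the 3 libraries and 47.0 to 61.5 CPM at 25 mM, and without the 5 its log2 fold change of 0.45 had an interval from -0.07 to 0.97.

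Among the mitochondrial enzymes, Wars2 RNA was at 59.7 to 160.1 CPM in the 5 libraries, 8.67 to 22.4 CPM in the other 3 and 5.99 to 7.62 CPM at 25 mM. Its log2 fold change was -3.19 and, without the 5, -1.09 (adjusted p = 0.00124, edgeR's quasi-likelihood test). Fars2, the phenylalanyl enzyme, was at 11.2 to 44.8, 20.4 to 48.7 and 11.3 to 15.1 CPM, with -0.99 and, without the 5, -1.40 (adjusted p = 0.000508, edgeR's quasi-likelihood test). Wars2 was higher at 5.5 mM in all 8 libraries, whereas Fars2 was so in all of the 3. Vars2 was at 43.5 to 71.1, 18.5 to 37.8 and 8.93 to 16.1 CPM, with -1.90 and -1.15 (adjusted p = 0.00137 without the 5, edgeR). Sars2 was at 8.23 to 24.4, 10.1 to 16.1 and 6.07 to 9.99 CPM, with -0.92 and -0.68 (adjusted p = 0.00426 without the 5, edgeR). With all libraries, Fars2 lost its call without replicate 1, 2, 5, 6 or 8, and Sars2 without replicate 6.

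Of the members whose RNA rose, Aimp2 was at 0 to 2.99 CPM in the 5 libraries, 2.24 to 8.33 CPM in the other 3 and 9.98 to 13.2 CPM at 25 mM, and its log2 fold change without the 5 was 1.25 (adjusted p = 0.00343, edgeR's quasi-likelihood test). Eef1e1 was at 0 to 2.59, 5.46 to 16.9 and 16.3 to 28.3 CPM, with 1.15 without the 5 (adjusted p = 0.00989, edgeR's quasi-likelihood test). The 3 remaining libraries at 5.5 mM lay below the 25 mM range for Aimp2 and reached into it for Eef1e1. Rars, the arginyl enzyme, was at 37.5 to 50.04 CPM in the 3 and 58.9 to 107 CPM at 25 mM (0.72, adjusted p = 0.00596, edgeR's quasi-likelihood test, without the 5). Mars2 was at 2.70 to 5.73 and 6.62 to 11.1 CPM (1.13, adjusted p = 0.00417, edgeR's quasi-likelihood test, without the 5). Aimp1, the third scaffold protein, was at 262 to 556 CPM in the 5, 44.6 to 75.8 CPM in the 3 and 34.5 to 54.1 CPM at 25 mM. Its RNA fell, the log2 change being -2.59 with all libraries and -0.47 without the 5 (adjusted p = 0.00883, edgeR's quasi-likelihood test), a call that was lost when those libraries were scaled by size (-0.38). In the fit to all libraries, Eef1e1 lost its call without replicate 5, 6, 7 or 8 and Rars without replicate 7.

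**Figure D4:**
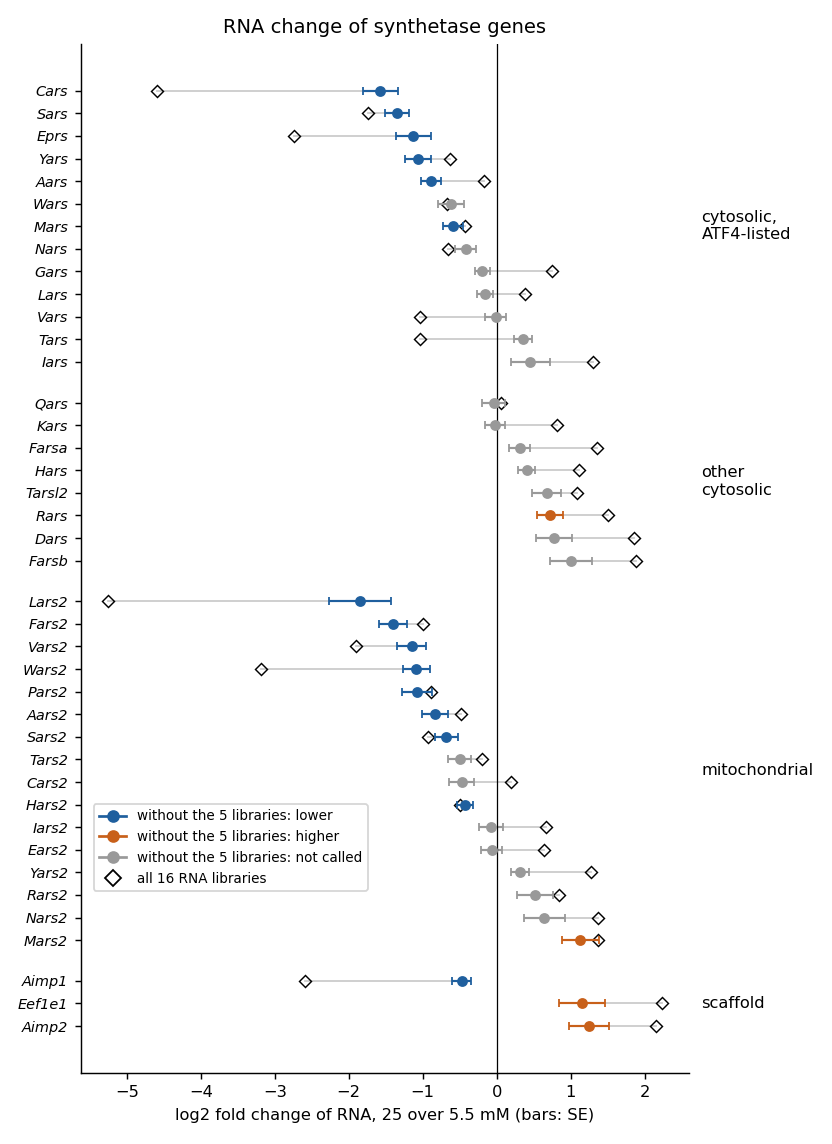
Log2 fold change of RNA CPM, 25 over 5.5 mM glucose, by group of members. Filled points with the SE as bars are the fit without the 5 RNA libraries that stand apart, colored by its call at an adjusted p under 0.01, and open diamonds are the fit to all 16 libraries. The diamond lies far from the point for Lars2 (-5.25 against -1.85) and Cars (-4.60 against -1.57).

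Lars2 encodes the leucyl enzyme of mitochondria, and its RNA counts were described apart from the rest because they varied by library. In unscaled CPM, Lars2 RNA in replicates 1 to 8 at 5.5 mM was 2359, 6249.9, 656, 11023, 7287, 26511, 58018 and 66966. At 25 mM it was 840.0, 426, 617, 679, 1618, 2001, 519 and 1523. The ranges overlapped through 5.5 mM replicate 3, and the 5 libraries that stood apart held 6249.9 to 66966. Replicate 5 at 5.5 mM, which stays in the fit without the 5, lay inside that range at 7287. Within each concentration the highest value lay in batch 2. Lars2 took 58.3% to 94.8% of all member RNA counts in the 5, 14.6% to 61.0% in the other 3 and 10.6% to 37.5% at 25 mM, so it was left out of the summed levels of mitochondrial enzymes. The TMM-scaled log2 fold change was -5.25 (SE 0.97, adjusted p = 0.000322, edgeR's quasi-likelihood test) and, without the 5, -1.85 (SE 0.42, adjusted p = 0.00446, edgeR's quasi-likelihood test).

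Lars2 RPFs showed no such spread. They were at 18.2, 32.5 and 38.0 CPM at 5.5 mM and 17.7, 28.9 and 34.8 CPM at 25 mM, from 7 to 237 reads per library, and took 0.283% to 0.679% of member RPF counts. The log2 fold change was -0.09 with an interval from -0.36 to 0.17 (adjusted p = 0.666, edgeR's quasi-likelihood test). Cytosolic Lars had the opposite order of calls. Its RPFs fell, as given above, while its RNA, at 70.1 to 84.5 CPM in the 3 libraries and 63.5 to 81.6 CPM at 25 mM, was not called without the 5 (-0.16, interval from -0.36 to 0.05). In the 5, Lars RNA was at 29.7 to 70.3 CPM. The difference between Lars and Lars2 was not itself tested.

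**Figure D5:**
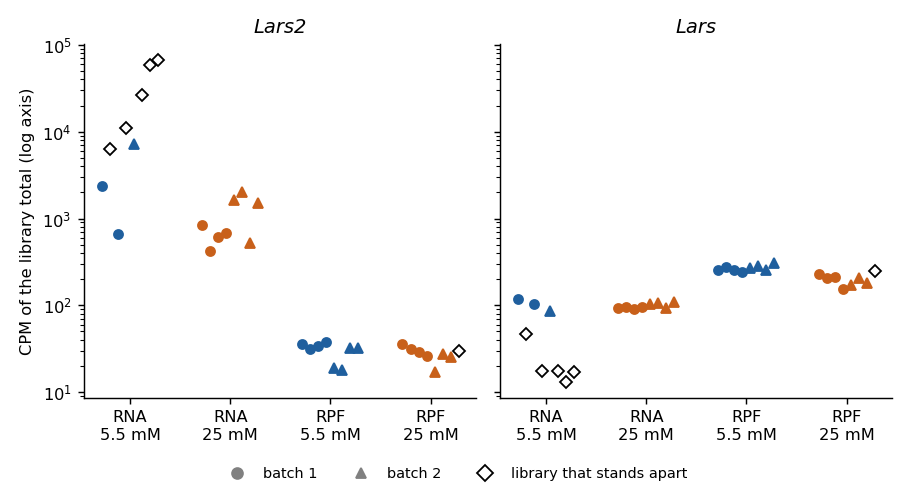
Unscaled CPM (log axis) of Lars2 (left) and Lars (right) in each RNA and RPF library by glucose concentration. Circles are batch 1, triangles batch 2 and open diamonds the libraries that stand apart. Lars2 RNA at 5.5 mM spans 656 to 66966 CPM, while Lars2 RPFs stay in a narrow band in all libraries.

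Translation efficiency (TE), the ratio of RPFs to RNA, was tested in 1 edgeR model of the 32 libraries, as the difference between the glucose effects on RPFs and on RNA. TE of 13 members rose and of 14 fell at an adjusted p under 0.1 with all libraries, where 31.2% of 8637 genes rose and 28.6% fell. Without the 6 libraries that stood apart, 14 rose and 10 fell, where 27.4% and 26.3% of 9165 genes did so. These member counts are close to what the background share would give among 39 and 41 genes. Called in the same direction in both fits were 10 that rose (Cars, Eprs, Sars, Wars, Lars2, Aars2, Fars2, Sars2, Vars2 and Aimp1) and 9 that fell (Iars, Dars, Farsb, Rars, Tarsl2, Mars2, Nars2, Aimp2 and Eef1e1). With library size scaling, which moved the median TE change of all genes from -0.10 to -0.91 on the log2 scale, Aars2, Sars2 and Wars turned to -0.05, -0.05 and -0.30.

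Per culture, log2 TE of Cars was -4.09 to -3.04 in the 5 at 5.5 mM, -0.84 to 1.019 in the other 3 and 0.57 to 1.54 at 25 mM. The TE change of Cars was 4.11 on the log2 scale with all libraries and 0.95 without the 6 (adjusted p = 0.00384, edgeR's quasi-likelihood test). For Eprs the same values were -2.01 to -1.12, -0.58 to 1.66 and 0.89 to 1.75, with changes of 2.50 and 0.76 (adjusted p = 0.0114 without the 6, edgeR). In these 2 genes, and in Sars at 1.25 and 0.70, TE rose while RPFs fell, RNA having fallen by more. Iars showed the reverse, with log2 TE of 2.66 to 4.28 in the 5, 1.04 to 2.44 in the 3 and -0.05 to 1.37 at 25 mM. Its TE fell by 1.74 on the log2 scale and, without the 6, by 1.09 (adjusted p = 0.00276, edgeR's quasi-likelihood test).

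TE of Aars and Mars, the members with the largest falls in RPFs, was not called in either fit. Without the 6 libraries their TE changes were 0.05 (interval from -0.25 to 0.35) and -0.22 (interval from -0.55 to 0.11). Lars2 TE changed by 5.31 with all libraries and by 1.80 without the 6 (adjusted p = 0.00295, edgeR's quasi-likelihood test), with RPFs that were not called and RNA that fell. Fars2, Vars2 and Aars2, at 1.30, 0.97 and 0.97 without the 6, likewise had RPFs that were not called. Of the members whose TE fell, Mars2 was at -1.50 and -1.31 with and without the 6 libraries. Aimp2, Dars, Farsb and Nars2 fell by 0.92, 0.79, 0.85 and 0.86 without the 6, and Eef1e1, Tarsl2 and Rars by 0.71, 0.67 and 0.58.

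The RPF levels of Farsb, Tarsl2 and Nars2, whose TE fell, overlapped between the groups. Farsb RPFs were at 125, 134 and 161 CPM at 5.5 mM and 129, 146 and 159 CPM at 25 mM, while its RNA was at 15.6 to 50.95 CPM in the 3 libraries and 54.4 to 75.6 CPM at 25 mM. Tarsl2 RPFs were at 53.5, 71.1 and 78.3 CPM and 58.6, 68.2 and 76.8 CPM, and its RNA was at 18.5 to 34.49 CPM in the 3 and 34.54 to 44.55 CPM at 25 mM. Nars2 RPFs were at 6.54, 12.2 and 19.3 CPM and 2.62, 10.05 and 19.96 CPM, and its RNA was at 2.70 to 9.63 CPM in the 3 and 8.14 to 9.43 CPM at 25 mM. In RNA the 3 libraries at 5.5 mM lay below the 25 mM range for Farsb and Tarsl2 and overlapped it for Nars2. Dars RNA was at 32.8 to 72.8 CPM in the 3 and 70.6 to 105.6 CPM at 25 mM. Wars, whose TE rose, had RNA of 91.2 to 219 CPM in the 3 and 84.9 to 100.5 CPM at 25 mM, which overlapped. Tars was called in opposite directions, at 1.10 with all libraries and -0.40 without the 6. Its RNA was at 93.7 to 381 CPM in the 5 libraries and 58.9 to 63.9 CPM in the other 3. Among the calls with all libraries, Aars2 was lost without replicate 5 or 6 and Wars without replicate 2 or 8.

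Other genes of the ATF4 pathway and of tRNA use were counted in lists written from general knowledge with earlier results of these data known. Of 34 ATF4 pathway genes outside the synthetases, 28 were tested in RPFs, of which 24 fell and 2 rose, where 15.4% and 15.5% of all genes did so, with a median log2 fold change of -0.755 against the -0.01 of all genes. Trib3, a pseudokinase induced by ATF4, went from 24.2, 42.9 and 50.7 CPM to 3.90, 8.16 and 35.3 CPM (-2.05, SE 0.27, adjusted p = 8.04e-06, edgeR's quasi-likelihood test). As for the synthetases, the highest 25 mM value was replicate 8, and the other 7 lay below the 5.5 mM range at up to 11.1 CPM. Atf5, a related transcription factor, Chac1, which degrades glutathione, and Slc1a4, a transporter of neutral amino acids, fell by 1.51, 1.31 and 1.28 on the log2 scale. The 2 that rose were Slc1a5, a glutamine transporter (0.76), and Pycr1, an enzyme of proline synthesis (0.39). Without the RPF library of 25 mM replicate 8, Stc2, a secreted glycoprotein that did not pass the filter with all libraries, also rose (1.88, adjusted p = 2.35e-06, edgeR's quasi-likelihood test). Without the 5 cultures 17 of 31 tested fell, and in batch 2 alone 5 of 25, which became 19 of 25 without replicate 8. Of all genes, 4.75%, 1.39% and 10.9% fell in these fits, in the same order. In RNA without the 5 libraries, 17 of the 34 fell and 2 rose, where 19.2% and 10.4% of all genes did so. With all RNA libraries 11 of the 34 fell and 1 rose, where 24.2% and 16.4% of all genes did so.

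Of 6 tested genes that deliver charged tRNAs to the ribosome, 2 rose in RPFs and 0 fell, against 15.5% and 15.4% of all genes. Eef1b2, an exchange factor for the elongation factor that carries the tRNA, went from 151, 180.4 and 289.7 CPM to 220.0, 287 and 382 CPM (0.65, SE 0.11, adjusted p = 0.000156, edgeR's quasi-likelihood test). Eef1a1, that elongation factor, went from 520.4, 648 and 765 CPM to 674, 924 and 1051 CPM (0.45, SE 0.10, adjusted p = 0.0019, edgeR's quasi-likelihood test). Both pairs of groups overlapped. In RNA without the 5 libraries, 4 of the 7 delivery genes fell and 0 rose, where 19.2% and 10.4% of all genes did so. The 4 include Eef1a1, at -0.60 (adjusted p = 0.00345, edgeR's quasi-likelihood test). With all RNA libraries 3 of the 7 fell and 0 rose, where 24.2% and 16.4% of all genes did so. Eef1a1 was then at 0.30 and was not called (adjusted p = 0.573, edgeR's quasi-likelihood test). Of 9 tested genes of editing, peptidyl-tRNA hydrolysis and selenocysteine use, 3 rose in RPFs (Prorsd1, Ptrh2 and Ptrhd1, at 0.87, 0.29 and 0.50). In the same list 1 fell (Dtd1, at -0.40). With library size scaling 1 of the 9 rose, against 1176 of 8709 genes. Without the 5 cultures 0 rose and 0 fell, against 6.27% and 4.75% of genes, with 1 higher at an unadjusted p under 0.05. Of 8 tested genes of tRNA maturation and export, 1 fell, a share near the background, namely Xpot, the tRNA exporter, from a median of 62.6 to 40.0 CPM (-0.51, adjusted p = 0.00575, edgeR's quasi-likelihood test). Of 5 tested genes of mitochondrial aminoacyl-tRNA formation and 5 tested mitochondrial translation factors, 0 were called with TMM scaling by edgeR, nor by DESeq2, with 1 and 0 at an unadjusted p under 0.05. With library size scaling edgeR called 1 gene of the first list lower, where 1593 of 8709 genes were lower.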

How the data were processed

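The authors deposited raw read counts per gene for RNA and RPF libraries. According to their methods, reads were aligned to the mouse genome (Ensembl release 102) with the XPRESSyourself pipeline, rRNA alignments and PCR duplicates were removed, and reads were counted per gene on its longest transcript, over exons or over a shortened coding sequence. Which of these served which library type, and the aligner, are not given in the sources used here. Ratios of RPF to RNA therefore carry any difference in counting.

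Counts were tested with edgeR 4.0.16 (limma 3.58.1, R 4.3.3) using TMM scaling, filterByExpr and batch as a covariate, with Benjamini-Hochberg adjustment over all genes tested and calls under 0.01 for RNA and under 0.1 for RPF and TE. The SE came from the F statistic. TE per culture is a log2 ratio with a pseudocount of 0.5 CPM. Figures were drawn with matplotlib 3.10.9 and summaries with Python 3.11.15, numpy 2.4.6 and pandas 2.3.3. Sequences and motif matches are from RefSeq windows (GRCm38.p6). The fit was tested on simulated data, drawn for all libraries of a type from the same mean profile. These held no batch effect and no libraries that stand apart, and their fold changes were larger than those of the members in RPFs. How the fit performs on the real libraries was therefore not measured.

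Alternatives were DESeq2 1.42.0 (its size factors and its Wald test), library size scaling, no filter, no batch term, a replicate block, a block for the culture and a limma fit of ratios for TE, each batch alone and each replicate left out. The fits without the libraries that stand apart were added after seeing the data. Members and lists were chosen with earlier results of these data known. Every member is accounted for, and levels are given for members called in RPFs, for Lars and Lars2, for members called in RNA or TE with and without the libraries that stand apart, and for members that complete a pair of enzymes. Up to 4 called genes with the smallest p were named for each other list, or all where a list had fewer. The 2 that rose in the ATF4 list were named after their values were seen. Values of 1 member and 1 promoter match are not reported here. A second identifier of Ddit3 was left out of the list counts.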

Additional observations from a re-analysis of the deposited data

Results flagged for a closer look

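Among 62 groups of 8 libraries checked, 9 held a library far from the other 7 by Dixon's test, where chance would mark about 1 in 20 groups. In 5 of them the library was RPF 25 mM replicate 8, the highest of its group. Aars was at 736.2 CPM there against 343.2 to 408.1 CPM in the other 7, Eprs at 706.6 against 391.2 to 492.0 CPM, and Mars at 355.4 against 175.7 to 223.0 CPM. Nars was at 324.4 against 199.1 to 246.9 CPM and Sars at 451.3 against 217.4 to 296.6 CPM. RPF 5.5 mM replicate 2 was the highest for Aars (881.9 CPM, others 650.7 to 723.1) and Nars (348.6 CPM, others 264.0 to 302.7). RPF 5.5 mM replicate 3 was the highest for Hars (113.2 CPM, others 68.71 to 89.54). RNA 25 mM replicate 2 was the highest for Aimp2 (13.18 CPM, others 9.983 to 11.24).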

How the results depend on the processing

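RPF calls of members were 6 higher and 11 lower. With library size scaling or no filter 2 were higher, by DESeq2's Wald test and in batch 1 alone 3. In batch 2 alone 0 were higher, in batch 2 without the 25 mM replicate 8 library 2 and without the 5 cultures 0. Of all genes, 1351 of 8709 were higher, 1176 with library size scaling, 1444 of 16774 with no filter and 1363 by DESeq2. The count was 1152 of 10414 in batch 1, 197 of 6751 in batch 2 and 610 of 9724 without the 5 cultures. In batch 2 without the 25 mM replicate 8 library it was 787 of 6982. Lower calls were 2 in batch 2 alone and 6 without the 5 cultures, where 94 of 6751 and 462 of 9724 genes were lower, against 1338 of 8709 with all libraries. Leaving out a replicate gave 2 to 6 higher (2 without replicate 2, 4, 6 or 7 and 3 without replicate 1) and 10 to 12 lower. Over all genes these fits called 973 to 1507 higher and 876 to 1593 lower, of 7778 to 9295 tested. Lars2 in RPFs was at 0.0292 in batch 2 alone, against -0.09. RNA calls were 10 higher and 10 lower. Higher calls were 6 with library size scaling, 0 in batch 1, 4 without the 5 RNA libraries and 3 without them with library size scaling. Of all genes, 2032 of 12365 were higher, and 2175 with library size scaling. Without the 5 RNA libraries 1342 of 12918 were higher, and 1087 with library size scaling. Lower calls were 16 by DESeq2 and 0 in batch 1, where edgeR called 0 of all genes but 3526 had an unadjusted p under 0.05. DESeq2 called 3881 of all 12365 genes lower, against 2998 by edgeR. Leaving out a replicate gave 4 to 11 higher (4 without replicate 6 or 7, 5 without replicate 8) and 7 to 10 lower. Over all genes these fits called 1024 to 2719 higher and 2360 to 3147 lower, of 12333 to 12396 tested. TE calls of 13 higher and 14 lower became 5 higher with library size scaling and 4 higher and 0 lower in batch 1. Member calls were 11 to 14 higher and 11 to 18 lower with a replicate left out, and over all genes 2210 to 2887 higher and 1933 to 2676 lower. With library size scaling TE of Aars2, Sars2 and Wars turned to -0.0535, -0.0507 and -0.30. A batch alone holds fewer samples, and the causes of these changes were not tested.

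Replicate numbers were not taken to pair the samples, since not every pair correlated above 0.1. Deviations of same-numbered samples correlated at -0.22 to 0.22 in RNA and 0.01 to 0.48 in RPFs, with the own number best in 1 of 8 and 6 of 8, so that RPFs give a hint of pairing from the data. With the replicate block 6 members were lower in RNA, where 1906 of 12365 genes were lower, against 2998 without the block. In RPFs the block called 1499 of 8709 genes higher and 1539 lower, against 1351 and 1338 without it. All other member counts were within 1.5 times. The lowest RPF library held 363569 counts, and what this depth can detect was not measured.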
